A study of Mus musculus with 3 samples.

Results

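The 5 genes described here, Ankrd1, Ankrd2, Ankrd23, Fhl1 and Fhl2, encode proteins that bind the elastic springs of titin, and they were measured in hearts of mice carrying the splicing factor variant Rbm20 I538T. They were chosen by gene symbol from 52071 gene identifiers. The symbol found 4 of the 5 genes with 69 exonic parts. Ankrd23 was found only through its gene ID, because its exons overlap those of Gm42417 and Ankrd39, and its 16 parts were taken by their coordinates, which gave 85 parts of 469293 in all. Hearts of 12-week-old mice of 3 genotypes on a C57BL/6J background were sequenced. These were homozygotes and heterozygotes for the I538T point mutation of Rbm20, knocked in with CRISPR/Cas9, and wild-type mice. Each genotype had 1 library, called representative in the labels, made from total RNA with the SMART-seq v4 and Nextera XT kits. The study speaks of an average over several mice per genotype for its PSI values, and the sources used here do not say whether a library held RNA of 1 mouse or of several. Differences between genotypes therefore have no replicate check, no test between genotypes was possible, and the 95% intervals below cover counting error of reads only.

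Titin is the giant elastic protein of the sarcomere, and its spring holds the N2B and N2A elements. Splicing directed by RBM20 changes which alternative exons of the spring are included. The muscle ankyrin repeat proteins CARP (Ankrd1), ARPP (Ankrd2) and DARP (Ankrd23) dock on the N2A element, can move to the nucleus and are known as genes that respond to stretch of the muscle wall. The LIM-only proteins FHL1 and FHL2 bind the N2B element. There FHL1 is known as a scaffold of signalling proteins, and FHL2 as an adaptor that brings metabolic enzymes such as creatine kinase to the sarcomere.

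Positions are those of GENCODE M21 on GRCm38. Ankrd1 (ENSMUSG00000024803) lies on chromosome 19 from 36111961 to 36120099 on the minus strand, and Ankrd2 (ENSMUSG00000025172) on the same chromosome from 42036000 to 42045110 on the plus strand. Ankrd23 (ENSMUSG00000067653) lies on chromosome 1 from 36530188 to 36536883 on the minus strand. Fhl1 (ENSMUSG00000023092) spans X from 56731787 to 56793346 on the plus strand, and Fhl2 (ENSMUSG00000008136) spans chromosome 1 from 43123074 to 43196984 on the minus strand.

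The sequences that belong to the largest differences below are shown first. RefSeq start windows (GRCm38.p6) run from 250 bases before a start to 50 after it, and 8 such windows matched the 5 genes. Capitals mark the M-CAT letters CATTCC, read on both strands (GGAATG on the other), the core of the element that TEAD factors bind. These letters stood in 3 of the 8 windows, against 14.7% of all 32851 windows. The Ankrd1 window held them at 2 places and each of the 2 Ankrd23 windows at 1 place, while the windows of Ankrd2, Fhl1 and Fhl2 held none. Both Fhl1 windows lay at internal starts, so the distal Fhl1 starts were not searched. The letters did not overlap those of the other 2 motifs searched on both strands, AGATAA (11.2% of all windows) and TATAAA (13.6%), each found in 3 of the 8 windows. The 3 windows shown are those of Ankrd1 (chr19:36119795-36120094, minus strand), of the more used Ankrd23 start (chr1:36535690-36535989, minus strand) and of the internal Fhl1 start (chrX:56779433-56779732, plus strand). A match is a description of letters and not of binding.
Ankrd1 start window: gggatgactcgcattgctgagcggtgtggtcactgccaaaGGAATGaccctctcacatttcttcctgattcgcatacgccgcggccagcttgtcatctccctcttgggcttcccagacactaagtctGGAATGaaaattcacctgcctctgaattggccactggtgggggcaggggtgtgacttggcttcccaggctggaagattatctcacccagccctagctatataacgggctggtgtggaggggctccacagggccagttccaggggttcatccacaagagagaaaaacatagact
Ankrd23 start window: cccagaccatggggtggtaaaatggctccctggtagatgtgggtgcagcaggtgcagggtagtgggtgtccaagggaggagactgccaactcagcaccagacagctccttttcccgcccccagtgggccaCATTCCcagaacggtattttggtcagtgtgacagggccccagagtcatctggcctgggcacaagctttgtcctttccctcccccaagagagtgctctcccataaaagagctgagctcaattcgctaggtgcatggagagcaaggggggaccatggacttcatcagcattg
Fhl1 internal start window: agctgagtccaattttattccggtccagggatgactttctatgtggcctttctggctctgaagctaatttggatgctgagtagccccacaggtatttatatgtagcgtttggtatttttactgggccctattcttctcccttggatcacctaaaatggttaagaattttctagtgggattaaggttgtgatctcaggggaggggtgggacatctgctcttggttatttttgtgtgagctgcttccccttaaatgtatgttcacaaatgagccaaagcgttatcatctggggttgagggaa

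Reads were counted over exonic parts, the pieces into which exons are divided where transcripts differ. An inclusion read covers the part, and an exclusion read joins the exons on either side of it. The libraries held 157990953 inclusion reads in the homozygote, 157178099 in the heterozygote and 149633524 in the wild-type. Gene sums are given as CPM, inclusion reads scaled to a library total of 1000000. One read can enter the count of several parts, so intervals of gene sums are too narrow, as are all intervals where amplified copies of 1 molecule were read. Rbm20 itself stood at 40.6, 36.004 and 37.2 CPM in the homozygote, heterozygote and wild-type, which does not check the labels, since the knock-in changes a single base. The markers of heart muscle were abundant: 6 of 7 were measured and summed to 60269.8, 61909.6 and 54940.6 CPM in the homozygote, heterozygote and wild-type. Of the atrial genes Myl7 stood at 1.20, 1.65 and 3.21 CPM and Myl4 at 1.84, 2.47 and 2.63 CPM, in the same order. Sln had 0.0570, 0.0382 and 0.167 CPM and Bmp10 0, 0 and 0.0401 CPM. Nppa, also on this list, went the other way, with 157, 126 and 83.1 CPM. In these bulk samples, fewer cells of a type and less RNA per cell cannot be told apart.

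Levels of the 5 genes were compared per length, over the parts that were included at 95% or more in every library. The order was the same in all 3 libraries: Fhl2 was highest, followed by Ankrd1, Ankrd23, Fhl1 and Ankrd2. Fhl2 had 488, 498 and 558 CPM per 1000 read positions in the homozygote, heterozygote and wild-type, with 88, 96 and 81 of 12620 genes above it. Ankrd1 had 241, 103 and 97.8, and Ankrd23 had 118, 71.1 and 77.1 on the same scale. Neighbours in this order lay outside each other's counting intervals in every library, and the closest pair was Ankrd1 and Ankrd23 in the wild-type. Fhl1, at 23.4, 13.6 and 16.6, was well below the other heart-expressed members. Ankrd2, known mainly from slow skeletal muscle, had 0.223, 0.116 and 0.185 and was close to undetected. Its level rests on 6 of its 10 parts, partly because parts without reads in a library could not enter.

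**Figure D1:**
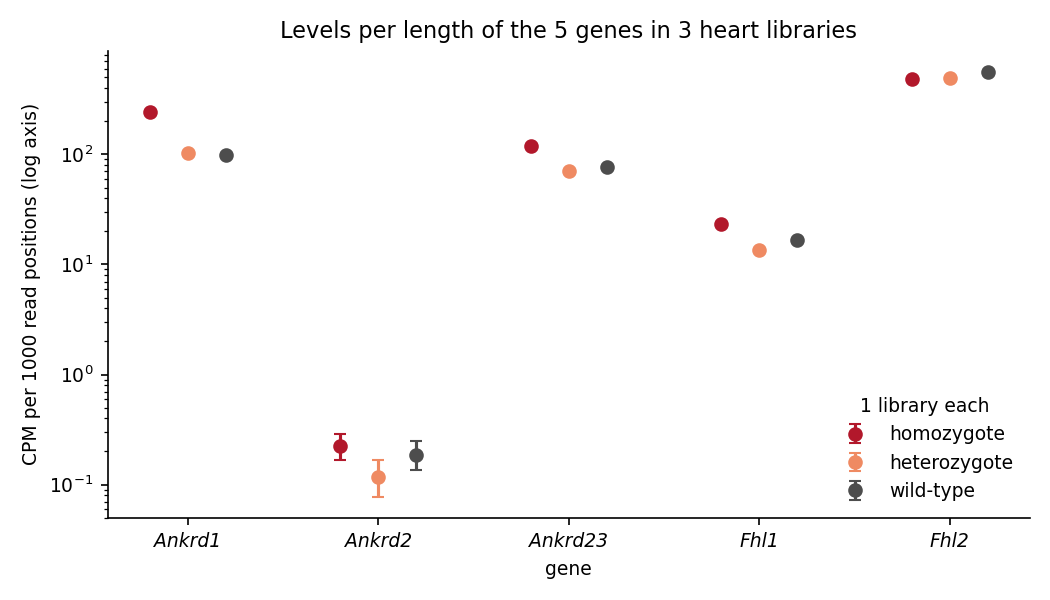
Level of each gene in CPM per 1000 read positions (vertical, log axis) in the homozygote, heterozygote and wild-type library (points, 1 library each), with 95% counting intervals as bars, most of them smaller than the point. Ankrd1 stood at 241 in the homozygote, above 103 in the heterozygote and 97.8 in the wild-type, whereas Fhl2 was the highest gene in each library.

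Of the ankyrin repeat genes, Ankrd1 differed most between genotypes. It had 987 CPM in the homozygote, 421 CPM in the heterozygote and 400.5 CPM in the wild-type, so the homozygote stood apart from the other libraries. The homozygote was higher than the wild-type by a ratio of 2.47 (2.44 to 2.49) and higher than the heterozygote by 2.35 (2.32 to 2.37). The heterozygote exceeded the wild-type by only 1.05 (1.04 to 1.06), a log2 difference of 0.07 that became -0.01 when 5 blood genes were left out of the totals. On the scale of log2(CPM + 1), on which genes were compared throughout, the homozygote was 1.30 above the wild-type, and 22 of the 12862 genes compared (those averaging 1 CPM or more) were at or above this value, Ankrd1 included.

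Ankrd23 was also highest in the homozygote, by a smaller ratio, with the heterozygote lowest. It had 472 CPM in the homozygote, 283 CPM in the heterozygote and 310.5 CPM in the wild-type. The ratio was 1.52 (1.503 to 1.539) for homozygote over wild-type, 0.913 (0.901 to 0.925) for heterozygote over wild-type and 1.67 (1.65 to 1.69) for homozygote over heterozygote. Most of its exons are shared with Gm42417, and reads of these genes cannot be told apart there. Over the 5 parts that lie in no exon of the overlapping genes the log2 difference between homozygote and wild-type was 0.61, against 0.60 over all 16.

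Ankrd2 had 75 reads in the homozygote, 38 in the heterozygote and 47 in the wild-type. The ratio of homozygote to wild-type was 1.51 with a wide interval (1.04 to 2.23), and the gene stayed below the 1 CPM needed to be counted among the genes compared. Its reads also lay in different places: the first 5 parts held 48, 15 and 10 reads and the last 5 parts 27, 23 and 37 in the homozygote, heterozygote and wild-type. Skeletal muscle markers summed to 6.91, 7.97 and 8.01 CPM in these libraries with 8 of 10 below a mean of 1 CPM, and their part in the Ankrd2 reads was not tested.

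The FHL genes diverged. Fhl1 had 104 CPM in the homozygote, 60.3 CPM in the heterozygote and 73.9 CPM in the wild-type. Homozygote over wild-type was 1.41 (1.38 to 1.44), heterozygote over wild-type 0.817 (0.795 to 0.840), and homozygote over heterozygote 1.73 (1.68 to 1.77). Thus the homozygote was highest and the heterozygote lowest, as for Ankrd23.

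Fhl2 was lower in both mutants, with 1366 CPM in the homozygote, 1393 CPM in the heterozygote and 1563 CPM in the wild-type. The ratios to wild-type were 0.874 (0.869 to 0.879) and 0.891 (0.886 to 0.896) in the homozygote and heterozygote. The mutants lay close to each other, with a log2 difference of homozygote over heterozygote of -0.03 that turned to 0.09 under edgeR TMM scaling, 0.08 under DESeq2 scaling and 0.09 with blood genes left out of the totals. These differences are small beside the spread of all genes: 31.2% of the genes compared were at or below the log2 value of Fhl2 for homozygote over wild-type.

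Of the 5 genes, Ankrd1, Fhl1 and Fhl2 are among the 12862 compared, Ankrd2 was under 1 CPM, and Ankrd23, whose parts carry no symbol of their own, was computed apart. By a size rule of at least 2-fold on log2(CPM + 1), 1 of the 5 genes (Ankrd1) exceeded the wild-type in the homozygote, against 0.319% of the genes compared. At 1.5-fold it was 2 of 5, Ankrd1 and Ankrd23, against 1.27%, and under TMM or DESeq2 scaling Fhl1 passed as well, with a log2 ratio of 0.59 in place of 0.49. Against the heterozygote, Ankrd1 alone passed 2-fold (0.536% of all genes), and Ankrd1, Ankrd23 and Fhl1 passed 1.5-fold (1.48%). Over its longest included part alone, Fhl1 had a log2 ratio of 0.53 to the heterozygote in place of 0.78 and did not pass. Both comparisons use the homozygote library. Between heterozygote and wild-type none of the 5 genes passed 1.5-fold in either direction, where 1.21% of all genes were higher and 3.1% lower. The split of all genes depended on scaling: at 1.5-fold, 163 genes were higher and 696 lower in the homozygote by library totals, relative to wild-type, against 251 and 511 by TMM. For homozygote over heterozygote it was 191 and 399, against 310 and 248, and at 2-fold 69 and 56, against 81 and 43. For heterozygote over wild-type it was 156 and 399, against 101 and 548 when blood genes were left out of the totals.

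The libraries differed in their blood content, which enters every share of the total. Reads of 5 blood genes made up 10.7% of the homozygote, 3.20% of the heterozygote and 8.61% of the wild-type library. With these genes left out of the totals, homozygote over wild-type was 1.33 for Ankrd1, 0.64 for Ankrd23, 0.52 for Fhl1 and -0.16 for Fhl2 on the log2 scale. Immune markers were lowest in the homozygote, where the blood share was highest. Their sums were 284, 515 and 460.1 CPM in homozygote, heterozygote and wild-type over 5 genes (Cd74 was not measured). Smooth muscle and pericyte markers were highest in the heterozygote (305, 372 and 260.4 CPM over 8 genes). Markers of small intestine summed to 25.9, 57.3 and 83.1 CPM over 10 genes, of which Lgals4 alone gave 25.3, 56.7 and 51.5 CPM. Fabp1, Fabp2, Apoa4 and Sis were at or near 0 in the homozygote and heterozygote (at most 0.076 CPM), and at 11.2, 7.73, 6.36 and 3.92 CPM in the wild-type. Fibroblast markers summed to 1122, 1026 and 1126 CPM over 5 genes and endothelial markers to 374, 391 and 387 CPM over 5 genes in the homozygote, heterozygote and wild-type. The part of these tissues in the differences was not tested.

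In Ankrd1, Ankrd23, Fhl1 and Fhl2 nearly all included parts lay on the same side of 1 for homozygote over wild-type. The size of the ratio varied along Fhl1, and Ankrd2 had too few reads for ratios by part. Over 13 included parts of Ankrd1, homozygote over wild-type ranged from 1.89 to 2.63 with a median of 2.47, and every part was higher in the homozygote. Heterozygote over wild-type varied along the gene, with 1.64 (1.17 to 2.31) and 1.24 (1.19 to 1.29) in the parts of the first exon, 1.16 (1.13 to 1.20) in the next exon and 0.953 to 1.07 in the included parts downstream. Of the 13 parts of Ankrd23 with at least 20 reads in both libraries, 12 had ratios of 1.42 to 1.64 for homozygote over wild-type. The exception was the outermost 5 bases of its last exon, with 26, 23 and 42 reads in homozygote, heterozygote and wild-type. Fhl2 parts ranged from 0.811 to 0.984 over 9 included parts.

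In Fhl1, in the exons from the first common exon onward up to the 170-base exon, homozygote over wild-type was 1.51 to 1.69. In the parts of the last exon it was 1.26 (1.18 to 1.34), 1.27 (1.19 to 1.36) and 1.37 (1.30 to 1.44). The 57-base exon that follows the distal first exon had 260 reads in the homozygote, 158 in the heterozygote and 229 in the wild-type, a ratio of only 1.08 (0.897 to 1.29), while the distal first exon itself had 1.55 (1.19 to 2.05) from 146, 70 and 89 reads. The 5' parts of the gene thus differed among themselves.

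**Figure D2:**
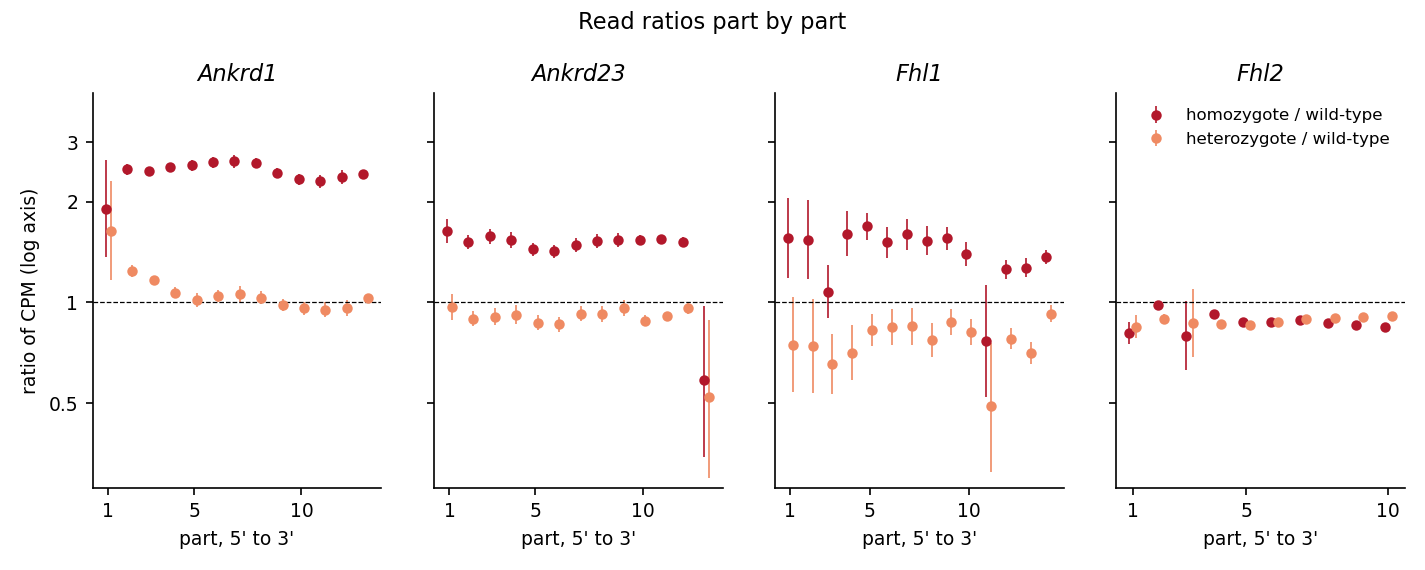
Ratio of CPM (vertical, log axis) for homozygote over wild-type and heterozygote over wild-type in each part with at least 20 reads in both libraries of each pair, ordered from the 5' end; bars are 95% counting intervals. Ankrd1 parts lie between 1.89 and 2.63 in the homozygote, Fhl2 parts lie below 1, and the third Fhl1 part (the 57-base exon) lies at 1.08 beside neighbours above 1.5.

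Fhl1 had a different use of its first exons in the homozygote, the largest inclusion difference between homozygote and wild-type among the 67 measured parts of the 5 genes. Fhl1 can start at distal exons or at an internal first exon of 72 bases (chrX:56779723-56779794, the first exon of Fhl1-204). Fhl1-202 starts within this exon, at 56779730, and the reads were not assigned to either transcript. Percent spliced in (PSI) is the share of inclusion among the inclusion and exclusion reads of a part, scaled for length. Transcripts that start downstream of a first exon do not enter its PSI. The deposited PSI was 20.9% in the homozygote, 5.17% in the heterozygote and 4.22% in the wild-type over 65 of the 72 bases. The homozygote was 16.6 points above the wild-type (11.6 to 21.6) and 15.7 points above the heterozygote (9.87 to 20.9). Heterozygote and wild-type differed by 0.946 points (-3.15 to 5.64).

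The same was counted from reads that join a first exon to the first common exon, as differences of the exclusion counts of neighbouring parts, a measure chosen after the values were seen. The counts of the internal first exon and the distal start equal the inclusion and exclusion reads behind the PSI above. They therefore restate that difference and are no separate support for it. The internal first exon gave 86 of 321 such reads in the homozygote, 10 of 139 in the heterozygote and 12 of 205 in the wild-type. These are shares of 26.8% (22.02 to 32.0), 7.19% (3.50 to 12.8) and 5.85% (3.06 to 10.002), by exact Clopper-Pearson intervals. Relative to library totals, the internal exon was joined 6.79 times as often in the homozygote as in the wild-type (3.69 to 13.6), and 0.793 times as often in the heterozygote (0.307 to 2.004). The distal start had 217, 122 and 181 joining reads, a ratio of homozygote to wild-type of 1.14 (0.928 to 1.39) whose interval included 1. An internal exon of 56 bases, the first exon of Fhl1-207, took 18, 7 and 9 reads, or 5.61%, 5.04% and 4.39%. Hence the reads of the internal first exon differed most, and these rest on 86, 10 and 12 reads.

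**Figure D3:**
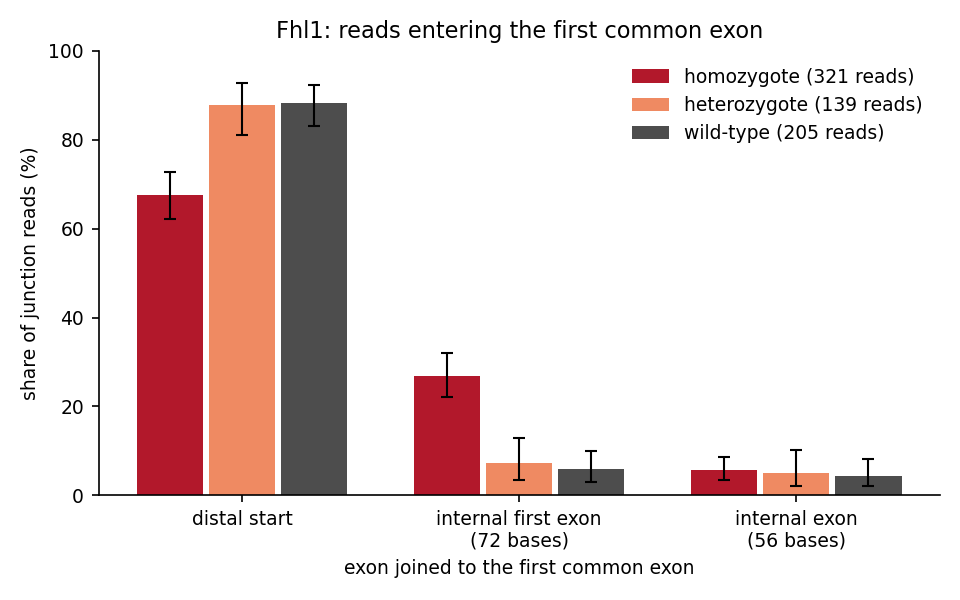
Share of the Fhl1 reads entering the first common exon (vertical, percent) that come from the distal start, the internal first exon of 72 bases and the internal exon of 56 bases, in the homozygote, heterozygote and wild-type (bars, 1 library each, with 95% Clopper-Pearson intervals). The internal first exon holds 26.8% in the homozygote, 7.19% in the heterozygote and 5.85% in the wild-type.

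The annotation places a start codon in the internal first exon. Transcripts from the distal exons begin translation in the first common exon at 56788015, whereas Fhl1-204 begins at 56779773. It thereby adds 48 coding bases, or 16 codons, in frame: 22 bases of the internal exon (chrX:56779773-56779794) and 26 bases of the common exon (chrX:56787989-56788014). Fhl1-202 has the same start codon and also adds 48 coding bases. These bases are shown because they are what the internal start adds to the coding sequence, with the bases of the internal exon in capitals, as in the GENCODE M21 transcript.
Fhl1-204 added coding bases: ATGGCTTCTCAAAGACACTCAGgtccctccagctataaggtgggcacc

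Other Fhl1 splicing differed less. The 200-base exon (chrX:56791239-56791438), found in Fhl1-203 alone in the annotation, had a PSI of 3.08%, 3.07% and 5.19% in the homozygote, heterozygote and wild-type, with differences from wild-type of -2.12 points in both mutants (-3.77 to -0.567 and -3.87 to -0.377). The 187-base exon (chrX:56790464-56790650), which Fhl1-202 lacks, stood at 94.5%, 93.4% and 97.2%. Skipping reads of this exon numbered 35, 25 and 12. So the wild-type was at one end for both exons, by a few points.

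In Ankrd23, a 99-base exon (chr1:36531909-36532007, minus strand), in frame with 33 codons and absent from Ankrd23-204, was the most often skipped. Its PSI was 82.9% in the homozygote, 85.9% in the heterozygote and 88.0% in the wild-type, with a difference of homozygote minus wild-type of -5.10 points (-7.05 to -3.10). Much of this came with reads that also skipped the exons around it. The 5 parts beside it were skipped by 144 to 184 reads in the homozygote, 0 to 32 in the heterozygote and 1 to 8 in the wild-type. Reads skipping this exon beyond those that skipped its neighbours numbered 341, 220 and 209, or 7.04% (6.34 to 7.80), 7.49% (6.56 to 8.50) and 6.94% (6.06 to 7.91) of these and its inclusion reads, with overlapping intervals. The exon is shown because it is the one exon of the gene whose skipping was annotated and seen in each library.
Ankrd23 99-base exon: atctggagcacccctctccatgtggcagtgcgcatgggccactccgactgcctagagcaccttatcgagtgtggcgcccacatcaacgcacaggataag

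Further upstream in Ankrd23, the parts of 65 and 64 bases were skipped by 199 and 55 reads in the homozygote, 0 and 0 in the heterozygote, and 119 and 118 in the wild-type, so the heterozygote stood apart there. The upstream first exon, annotated for Ankrd23-202, Ankrd23-203 and Gm42417, held few reads. Its parts of 35 and 327 bases had PSI of 34.0% and 13.6% in the homozygote and 63.6% and 51.7% in the heterozygote, from 17 and 15 against 20 and 34 inclusion reads, and the wild-type had under 20 reads there.

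Ankrd1 differed in the opposite way. Every exon between the second and the last was skipped by 87 to 91 reads in the wild-type, but by 0 to 1 reads in the homozygote and by 1 read in the heterozygote. The PSI of the exons of 138, 108 and 99 bases after the second exon was 96.4%, 95.8% and 96.2% in the wild-type and 100% to 3 digits in both mutants. The differences of homozygote minus wild-type were 3.58 (2.88 to 4.39), 4.19 (3.37 to 5.13) and 3.84 points (3.09 to 4.71). These exons each had 87 skipping reads in the wild-type. A read that skips several exons counts for each of them, so the differences are not separate results. In Fhl2, a single measured part had a PSI under 95%, an alternative first exon at 0.559%, 0.685% and 0.704%. Its most skipped included exon, of 179 bases, was skipped by 227, 195 and 244 reads in the homozygote, heterozygote and wild-type, with PSI of 97.2%, 97.4% and 97.1%. The 187-base exon was skipped by 36, 56 and 9 reads and the 175-base exon by 64, 66 and 13 reads in the homozygote, heterozygote and wild-type. For these last exons both mutants had more such reads than the wild-type, with PSI of the 175-base exon at 99.3%, 99.3% and 99.9%.

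By the size rule for PSI (20 points or more, from 20 or more reads in each library), 0 of 67 parts of the 5 genes passed between homozygote and wild-type, against 1.51% of all parts. The counts were 0 of 67 between heterozygote and wild-type (1.58%) and 2 of 70 between homozygote and heterozygote (1.53%), both in the upstream Ankrd23 first exon. At 10 points the counts were 2 of 67 (4.23%), 0 of 67 (4.55%) and 4 of 70 (4.38%). The 2 parts between homozygote and wild-type were both in the internal first exon of Fhl1. The counts of parts passing were near or below the background.

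In titin itself, reads over the 2646-base exon of Ttn that encodes the N2B element numbered 868 in the homozygote, 4863 in the heterozygote and 5854 in the wild-type, a ratio of homozygote to wild-type of 0.140 (0.131 to 0.151). The exon after it, of 279 bases, had 231, 2066 and 2160 reads, a ratio of 0.101 (0.0881 to 0.116). All Ttn parts gave 2143, 1662 and 1778 CPM in the homozygote, heterozygote and wild-type. This sum grows with the number of exons included, so it does not measure the number of transcripts. Reads that skip the N2B exon were few, with 2, 0 and 17 in the homozygote, heterozygote and wild-type, and its PSI was 95.3%, 100% and 94.1%, so the PSI did not show the difference seen in the reads over the exon. No other single Ttn exon was compared, and whether transcripts of the homozygote lack the N2B exon was not tested. Parts encoding the N2A element were not analysed here.

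Most other genes listed with the titin spring lay within 1.5-fold of the wild-type in both mutants. The list medians for homozygote over wild-type were nevertheless above that of all genes. A log2 ratio of 0.17 or more in this comparison was reached by 12.3% of the genes compared. The median log2 ratio of all genes was -0.08 for homozygote over wild-type and 0.01 for heterozygote over wild-type. The list of N2A partners and ankyrin repeat genes also held other muscle genes, such as Myot, whose binding to N2A was not examined. Of its 10 genes, 8 had a mean of at least 1 CPM. Their median was 0.21 for homozygote over wild-type, and 6 of them remained without the genes above, with a median of 0.14. Of these 6, Myot alone, which encodes the Z-disc protein myotilin, passed 2-fold (0.319% of all genes), with 117 CPM in the homozygote, 39.0 in the heterozygote and 43.6 in the wild-type and a log2 ratio to wild-type of 1.40 in the homozygote. Chosen after their values were seen, the methyltransferase gene Smyd2 (80.6, 101.8 and 86.7 CPM) and the telethonin gene Tcap (786, 722 and 673 CPM) stood within 1.5-fold.

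Of N2B partners and FHL genes, 8 of 12 were measured, with a median of 0.16 for homozygote over wild-type and none past 1.5-fold. The small heat shock protein gene Hspb1 had 259, 255 and 174 CPM in the homozygote, heterozygote and wild-type and, also picked after its value was seen, was the highest of the list in both mutants relative to wild-type (0.57 and 0.55). Csrp3, encoding the muscle LIM protein, had 2440.0, 1993 and 1919 CPM. Of the other FHL genes, Fhl3 and Fhl4 stayed under 1 CPM, and Fhl5 had 0 CPM in each library. The creatine kinase gene Ckm, whose product FHL2 is known to bring to the sarcomere, had 1546, 1551 and 1578 CPM.

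Of 14 symbols of genes known to respond to wall stretch, 12 were measured, and the other 2 are older names of genes in the list. Their median was 0.50 for homozygote over wild-type and 0.04 for heterozygote over wild-type, and 5 of 12 were past 1.5-fold higher in the homozygote (1.27% of all genes) and 2 of 12, Nppa and Nppb, in the heterozygote (1.21%). The list was chosen with earlier results of these data known, and the other 7 genes lay within 1.5-fold in the homozygote. The skeletal actin gene Acta1 had 1249 CPM in the homozygote, 181 in the heterozygote and 145 in the wild-type. Nppb, encoding the B-type natriuretic peptide, had 470.4, 298 and 144 CPM, and Nppa 157, 126 and 83.1 CPM. Xirp2 (134, 86.4 and 85.3 CPM) and Hspb7 also passed 1.5-fold in the homozygote. In contrast, Tead1, a factor that binds the M-CAT element, had 14.5, 16.1 and 19.8 CPM. For Acta1, Xirp2 and Hspb7 the heterozygote lay nearer the wild-type than the homozygote, as for Ankrd1, whereas for Nppa and Nppb the heterozygote was past 1.5-fold as well.

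**Figure D4:**
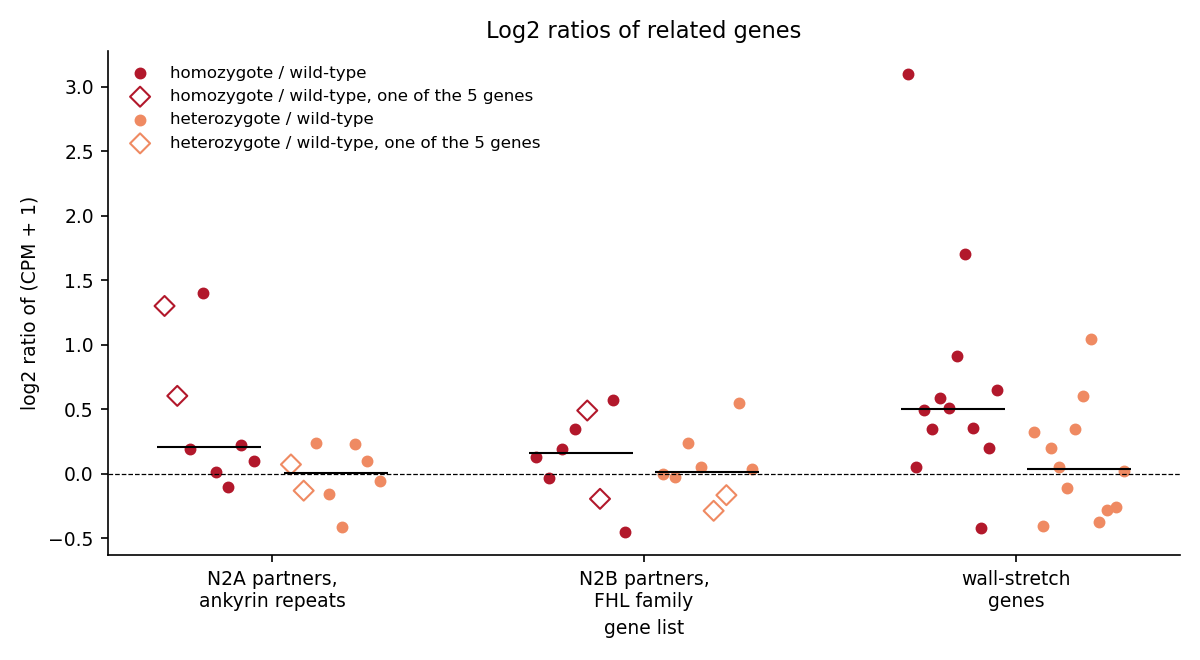
Log2 ratio of (CPM + 1) to wild-type (vertical) for genes averaging 1 CPM or more in 3 lists of related genes, for the homozygote and the heterozygote; diamonds are the genes described here and black lines are medians of each list. The wall-stretch genes have a median of 0.50 in the homozygote and 0.04 in the heterozygote, and the N2B partners have a median of 0.16 in the homozygote.

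The genes whose pattern over the 3 libraries was most like each member were sought among those averaging 10 CPM or more, by the distance between the pairs of log2 ratios to wild-type. For Ankrd1 these were Myot at a distance of 0.25, Sorbs2 at 0.43 and Slmap at 0.48 among 6623 genes, so few genes lay near it. For Ankrd23 the nearest was Hspb7 (0.028), which had 1009, 623 and 671 CPM in the homozygote, heterozygote and wild-type. The nearest to Fhl1 was 2310002L09Rik (0.074), to Fhl2 Plscr4 (0.0034) and to Ankrd2 Yars (0.0034). For Ankrd2, which lies under 1 CPM, the match is set by the pseudocount of 1 CPM: with 0.1 CPM its log2 ratios to wild-type were 0.47 in the homozygote and -0.28 in the heterozygote, in place of 0.17 and -0.08. The 3 libraries give only 2 ratios to compare.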

How the data were processed

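Total RNA of mouse heart was sequenced in 1 library per genotype at 12 weeks. Per the labels, the submitters' processing notes name cutadapt 1.1, Trimmomatic 0.32, TopHat2 2.0.14, Bowtie 1.1.1 and the build GRCm38. The counting program and the strand setting are not given in the sources used here. The authors deposited raw counts of inclusion and exclusion reads per exonic part, and PSI as a fraction. PSI is the inclusion count divided by part length plus 129 positions, over the sum of this and the exclusion count divided by 129; recomputed values differed from the deposited fraction by at most 5e-05 points. The deposited table also holds 3 PSI columns of 36 weeks, not used here for want of a matching sample label, and 2 columns of PSI differences, the comparisons of the authors. Neither set was used.

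Counts were summed per gene over parts with no overlapping gene and divided by the library total (CPM). Log2 ratios had a pseudocount of 1 CPM, for genes averaging 1 CPM or more. Ratios of reads had exact conditional binomial intervals, PSI Clopper-Pearson intervals carried to the PSI scale. Called meant 2-fold (or 1.5-fold) or 20 (or 10) points from 20 or more reads in each library, with no test. edgeR 4.0.16 (TMM) and DESeq2 1.42.0 (size factors) served only for alternative scaling. Scripts were tested on simulated data. The members and lists were chosen with earlier results of these data known, and 1 further list of related genes is not reported here. The rule for named genes took the members, the 3 genes nearest to each by pattern and list genes past 1.5-fold in either mutant; other list genes named were chosen after their values were seen. Python 3.11.15, numpy 2.4.6, pandas 2.3.3, scipy 1.17.1 and R 4.3.3 were used.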

Additional observations from a re-analysis of the deposited data

How the results depend on the processing

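Scaling moved the log2 ratios of homozygote over wild-type without turning any direction. With edgeR TMM factors they were 1.40 for Ankrd1, 0.70 for Ankrd23, 0.59 for Fhl1, which is then past 1.5-fold, and -0.0933 for Fhl2, and with DESeq2 size factors 1.40, 0.70, 0.59 and -0.0943 in the same order. The median of all genes moved by a similar step, to 0.01 from -0.08. Without the 5 blood genes in the totals, an alternative chosen after seeing the data, they were 1.33 for Ankrd1, 0.64 for Ankrd23 and -0.16 for Fhl2. Over the longest included part alone, so that a read counts about once, they were 1.27 for Ankrd1, 0.63 for Ankrd23, 0.43 for Fhl1 and -0.22 for Fhl2. At a fold of 1.5 in place of 2, 2 members in place of 1 were higher than in the wild-type and 3 in place of 1 than in the heterozygote. The number of genes past 2-fold, 208 for homozygote against wild-type, 134 for heterozygote against wild-type and 125 for homozygote against heterozygote, was 453, 292 and 292 with a pseudocount of 0.1 CPM, and 55, 59 and 41 with a mean of at least 10 CPM.

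Of all parts, 3059 (homozygote against wild-type), 3241 (heterozygote against wild-type) and 3097 (homozygote against heterozygote) passed 20 points. These numbers were 8583, 9348 and 8904 at 10 points, 1317, 1364 and 1350.0 with at least 50 reads, and 5081, 5270.0 and 5050.0 with at least 10 reads. Of the members' parts, 2 passed at 10 points between homozygote and wild-type and 4 between homozygote and heterozygote, in place of 0 and 2. With at least 10 reads 3 parts passed against wild-type in each mutant, and with at least 50 reads 0 passed between homozygote and heterozygote. Read depth limits Ankrd2, the internal first exon of Fhl1 and the upstream Ankrd23 first exon. In all, 76 of the alternative values moved by more than their counting interval or by over 1.5 times and 111 did not. No paired analysis was possible because each genotype had 1 library.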
